A study of Mus musculus with 4 samples.

Results

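Bone morphogenetic proteins (BMPs) and the related growth and differentiation factors (GDFs) were examined through 10 named genes, of which 8 encode secreted ligands (Bmp2, Bmp4, Bmp5, Bmp6, Bmp7, Gdf5, Gdf6 and Gdf10) and 2 encode type I receptors (Bmpr1a and Bmpr1b). They were picked by gene symbol from the amplicon names of the deposited table. Of the 10, 9 (7 ligands and both receptors) had a row among 23930 amplicons, and Gdf5 was not analysed here. The study compared progenitor cells of mouse subcutaneous tissue, labelled strain C57BL/6, that carried floxed Gnas alleles. Gnas encodes the stimulatory G protein alpha subunit, which turns on adenylyl cyclase. The Gnas mutant group (genotype Gnas-/-, treatment Ad-Cre) and the WT group (genotype wild type, treatment Ad-GFP) had 2 libraries each, called Gnas mutant 1 and 2 and WT 1 and 2. All cells were first infected with an adenovirus, and then spent 7 days in osteogenic medium, which favours bone formation. The groups thus differ in the virus as well as in Gnas, and these cannot be told apart. The labels name no age and do not say whether libraries came from separate animals or cultures. Each p-value thus reflects no more than the spread among these 4 libraries, part of which may be technical. Between the WT libraries this spread also covers a difference in sex-linked reads, given below.

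BMP and GDF ligands are made as precursors, cut by proprotein convertases and released as dimers. For ligands such as BMP2 and BMP4, a dimer joins type I and type II serine/threonine kinase receptors, and the type I receptor phosphorylates Smad1, Smad5 and Smad9. These enter the nucleus with Smad4 to switch on genes such as Id1. This route is not assumed here for Gdf10. Secreted antagonists such as noggin and gremlin hold the ligands away from the receptors. The pathway is best known for inducing bone and cartilage from mesenchymal cells.

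The libraries held 17460018 reads in Gnas mutant 1, 14847959 in Gnas mutant 2, 18455811 in WT 1 and 13483518 in WT 2. Values are RPM (reads of an amplicon scaled to a fixed total per library), and 1 short target stands for each gene, so levels of different genes are not compared. Over the 11638 genes tested, log2(RPM + 1) values had a Pearson's r of 0.981 between the Gnas mutant libraries and 0.916 between the WT libraries, and 0.885 to 0.909 between groups (taken across genes, and genes are no independent replicates). The stromal markers Pdgfra (92.1 to 128 RPM) and Col1a1 (5332 to 21009 RPM) were read in every library, whereas Dpp4 was at or below 1.19 RPM in each. The 10 stromal markers with a row summed to 24270 and 27510 RPM in the Gnas mutant libraries. Their sum was 10330 RPM in WT 1 and 15340 RPM in WT 2, and Col1a1 made up most of it. Dpt stood at 666 and 430 RPM in Gnas mutant and at 19.0 and 58.1 RPM in WT libraries. Col3a1 was lowest in WT 1 (750 RPM) and highest in WT 2 (2113 RPM). Gnas itself was not analysed here, so the genotypes were not checked by the targeted gene. WT 2 stood apart by its macrophage marker sum. The 12 listed markers summed to 30.2 and 16.9 RPM in the Gnas mutant libraries, and to 50.4 RPM in WT 1 and 968 RPM in WT 2. Lyz2 alone held 822 RPM in WT 2. At 1 RPM or more were 9 of the 12 in WT 2, 7 in WT 1 and 4 in each Gnas mutant library. Adgre1 was at 0 outside WT 2. C1qa, C1qb and C1qc stayed below 1 RPM in every library, with C1qa at 0 in both WT libraries. The X-inactivation RNA Xist stood at 395 and 419 RPM in the Gnas mutant libraries, and at 165 RPM in WT 1 and 0 in WT 2. The Y-linked gene Ddx3y ran the other way, at 26.9 and 12.5 RPM in the Gnas mutant libraries, and at 61.4 RPM in WT 1 and 124 RPM in WT 2. These sex-linked reads differed along with the group, and also between WT 1 and WT 2. A difference between donors cannot be told apart from the genotype.

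None of the 6 members that reached the filter (at least 1 RPM in at least 2 libraries) passed the test between groups, which was limma on log2(RPM + 1) with Benjamini-Hochberg adjustment over all 11638 genes at a threshold of 0.05. Over all genes tested, 2.30% passed, with 1.73% higher and 0.576% lower in the Gnas mutant libraries. Before adjustment 2 members, Gdf10 and Bmp4, had p below 0.05, both higher in the Gnas mutant libraries, as did 17.9% of all genes tested in either direction. Bmp4 reached the filter only through the Gnas mutant libraries, since WT 2 was the only WT library above 1 RPM. Its p and its lack of overlap are thus a description. For Bmp4 the unadjusted p was above 0.05 with edgeR (0.259), DESeq2 (0.225) and each of 3 rescalings (0.0509 to 0.0671). On whole reads recovered from the RPM values, edgeR called 0 members and DESeq2 called 1, Gdf10, against 0.799% and 9.37% of all genes. In 4 of the 6 (Gdf10, Bmp4, Bmpr1a and Bmpr1b) the groups did not overlap, as they did not in 51.8% of all genes tested. The 6 had a median log2 fold change of 0.09, against 0.08 for all genes tested, with 3 above and 3 below 0. Bmp2, Bmp5 and Bmp7 stayed below the filter.

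**Figure D1:**
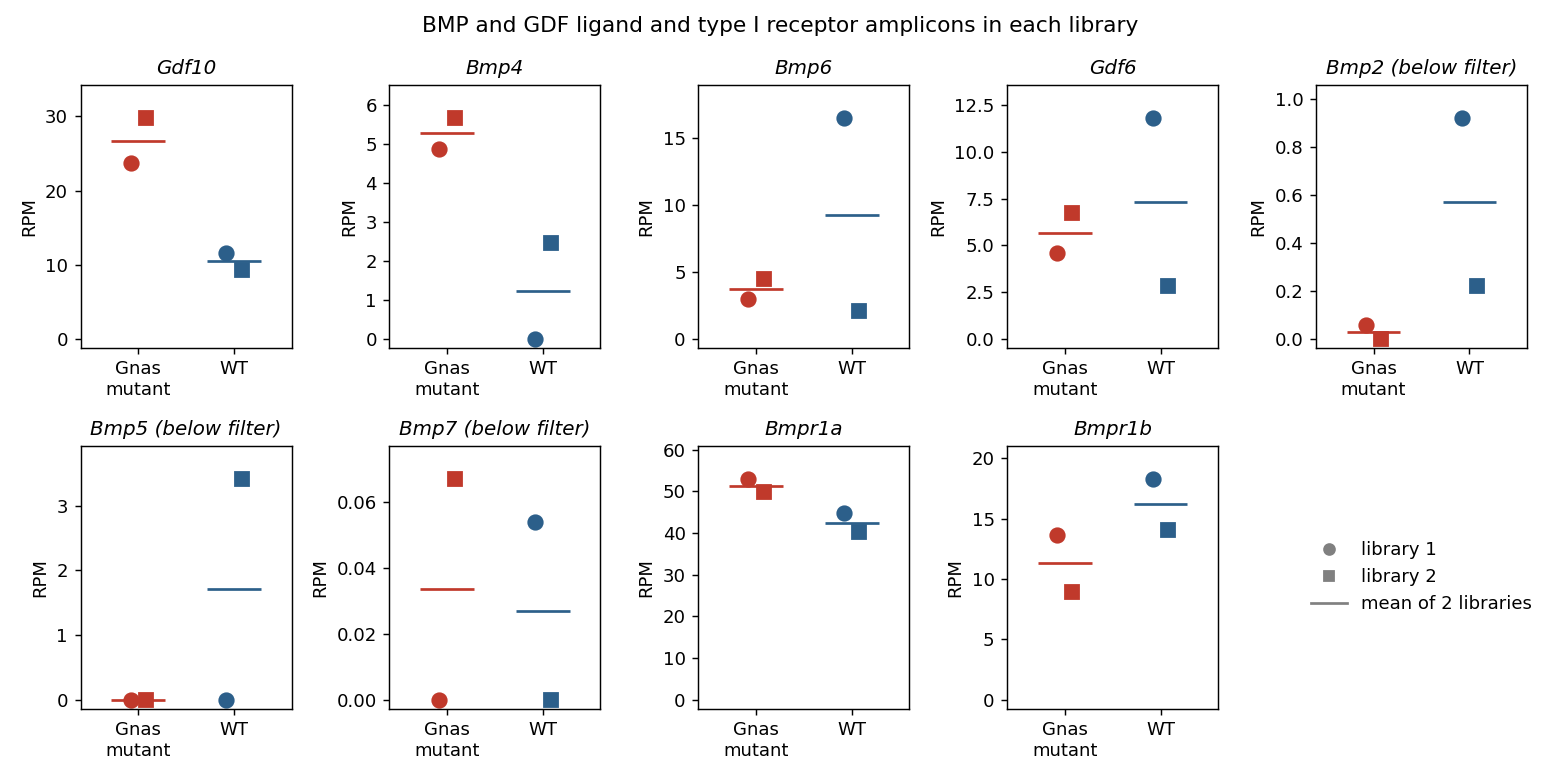
RPM (linear axis, a separate scale per gene) of the 9 amplicons in the 2 Gnas mutant libraries and the 2 WT libraries; circles are library 1, squares library 2 and lines the mean of 2 libraries. Gdf10 and Bmp4 lie higher in both Gnas mutant libraries, while the WT libraries lie far apart for Bmp6, Gdf6, Bmp4, Bmp2 and Bmp5.

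Among the member ligands, Gdf10 and Bmp4 were higher in both Gnas mutant libraries than in both WT libraries. So were 3 of the 9 other tested ligand genes read further below (Bmp3, Gdf1 and Gdf7). This is 33.3%, against 30.6% of all genes tested. Another 3 of the 9 (33.3%) were lower in both Gnas mutant libraries, against 21.1% of all genes tested. Bmp3 and Gdf7 reached the filter only through the Gnas mutant libraries. The stretches around the start sites of Gdf10 and Bmp4 are shown. Each runs 5′ to 3′ along the gene, from 250 bases before to 50 bases after the RefSeq start (GRCm38.p6). Gdf10 spans 33923587 to 33937983 of chromosome 14 (plus strand), and its stretch is chr14:33923337-33923636. Bmp4 spans 46383520 to 46390669 of the same chromosome (minus strand), and its stretch is chr14:46390620-46390919. Capitals mark GC boxes (GGGCGG or its reverse CCGCCC), a motif bound by factors of the Sp family.
Gdf10: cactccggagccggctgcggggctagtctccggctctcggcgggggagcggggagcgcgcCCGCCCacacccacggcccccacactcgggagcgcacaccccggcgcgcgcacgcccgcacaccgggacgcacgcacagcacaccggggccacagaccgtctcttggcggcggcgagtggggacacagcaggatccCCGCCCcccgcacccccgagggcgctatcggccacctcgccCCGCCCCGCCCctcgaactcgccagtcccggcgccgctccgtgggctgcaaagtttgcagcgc
Bmp4: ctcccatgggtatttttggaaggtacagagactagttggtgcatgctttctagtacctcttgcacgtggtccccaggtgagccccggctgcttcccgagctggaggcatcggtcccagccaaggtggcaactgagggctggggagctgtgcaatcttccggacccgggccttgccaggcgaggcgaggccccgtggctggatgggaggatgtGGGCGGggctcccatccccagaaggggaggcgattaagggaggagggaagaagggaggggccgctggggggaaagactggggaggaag
The Gdf10 stretch held 4 GC boxes, of which the pair nearest the start share a base, and 42 CpG dinucleotides, with a GC content of 77.3%. The Bmp4 stretch held 1 GC box and 12 CpG dinucleotides, with a GC content of 64.0%. A GC box occurred in 35.7% of the 32851 stretches of this length in the RefSeq table, whose median was 7 CpG dinucleotides and 52.7% GC. RefSeq stretches were present for 6 members (Gdf10, Bmp4, Bmp5, Bmp6, Bmpr1a and Bmpr1b), and 4 of these held a GC box. The Bmpr1a stretch held 4 GC boxes and 48 CpG dinucleotides (79.3% GC), and the Bmp6 stretch 1 and 27 (69.3% GC). On either strand, none of these 6 held the cyclic AMP response element TGACGTCA, its half-site TGACG or the GLI core GACCACCCA. Those letters occur in 1.79%, 20.8% and 0.253% of all such stretches. Amplicon positions were not given in the sources used, so these stretches locate the genes and not the measured targets.

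Gdf10 (also known as BMP3B, a ligand with effects on bone and nerve) was at 23.7 and 29.8 RPM in the Gnas mutant libraries, against 11.6 RPM in WT 1 and 9.35 RPM in WT 2. The lowest Gnas mutant value was above the highest WT value. Within each group the higher library was 1.255-fold (Gnas mutant) and 1.247-fold (WT) the lower. Means were 26.7 ± 4.28 RPM in Gnas mutant and 10.5 ± 1.63 RPM in WT libraries (SD, n = 2 each, as for all means here), a 2.55-fold ratio of means. The log2 fold change was 1.27 (SE 0.29, 95% interval 0.53 to 2.01), with an adjusted p of 0.115 by limma. It ranged from 1.03 to 1.43 over the alternatives and stayed positive in each. The adjusted p was 0.125 by edgeR and 0.0134 by DESeq2. The log2 fold change was 1.41 without WT 1, 1.12 without WT 2, 1.43 without Gnas mutant 1 and 1.11 without Gnas mutant 2. When a library is left out, the lone library of its group is assumed to vary like the other pair, so only the size is given here.

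Bmp4, a potent inducer of bone and cartilage, was at 4.87 and 5.66 RPM in the Gnas mutant libraries, against 0 in WT 1 and 2.45 RPM in WT 2. Both Gnas mutant libraries were above both WT libraries, and the WT libraries differed from each other, since WT 1 held no read and WT 2 held 33. No read in WT 1 allows up to 3 reads, which is 0.163 RPM there (counting error only). Means were 5.26 ± 0.558 RPM in Gnas mutant and 1.22 ± 1.73 RPM in WT libraries, a 4.30-fold ratio. The log2 fold change was 1.75 (SE 0.65), with an adjusted p of 0.256 by limma. It was 0.86 without WT 1 and 2.64 without WT 2, so its size rested on which WT library was used.

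Markers of other cells were set beside these 2 ligands. The stromal sum, given above, was higher in both Gnas mutant libraries. In bulk RNA, fewer cells of a type and less RNA per cell cannot be told apart. The 7 listed pericyte markers summed to 298 and 397 RPM in the Gnas mutant libraries. Their sum was 48.4 and 76.4 RPM in the WT libraries, so it was higher in both Gnas mutant libraries, as Gdf10 and Bmp4 were. Over all genes tested, 30.6% were higher in both Gnas mutant libraries. Within that list Cspg4, Notch3 and Mcam made up most of the sum. Abcc9 went the other way, at 0 and 0.067 RPM in the Gnas mutant libraries, against 6.23 and 0.89 RPM in the WT libraries. Kcnj8 did too, at 0.115 and 0.067 RPM against 0.867 and 0.593 RPM. Rgs5 stayed at or below 0.974 RPM and Higd1b was at 0 in every library. The 9 endothelial markers summed to 19.2 and 38 RPM in Gnas mutant and to 11.8 and 90.5 RPM in WT libraries, with Tie1 at 0 in each. The part of these cells in the ligand values was not tested.

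Bmp6, a ligand also known for its control of iron balance through hepcidin in liver, was at 2.98 and 4.51 RPM in the Gnas mutant libraries, against 16.5 RPM in WT 1 and 2.08 RPM in WT 2. WT 1 was high and the 3 other libraries were low, so the groups overlapped. The log2 fold change was -0.65 (SE 0.85, 95% interval -2.81 to 1.51), with an adjusted p of 0.738 by limma. Its direction turned with the WT library, at 0.61 without WT 1 and -1.90 without WT 2.

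Gdf6, a ligand of joint and skeletal patterning, was at 4.58 and 6.74 RPM in the Gnas mutant libraries, against 11.8 RPM in WT 1 and 2.82 RPM in WT 2. Both Gnas mutant values lay between the WT values. The log2 fold change was -0.09 (SE 0.64, 95% interval -1.72 to 1.54), with an adjusted p of 0.958 by limma. It was 0.78 without WT 1, -0.96 without WT 2 and 0.15 without Gnas mutant 1, and none of these passed. Bmp6 and Gdf6 thus shared a pattern in which WT 1 was the highest library and WT 2 the lowest.

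The other ligand genes were near the floor of detection. Bmp2, a strong inducer of bone formation, was at 0.057 RPM in Gnas mutant 1 and 0 in Gnas mutant 2, against 0.921 RPM in WT 1 and 0.222 RPM in WT 2. This is 1 read over the Gnas mutant group and 20 over the WT group, 17 of them in WT 1, a 20.2-fold lower pooled level in the mutants with an exact 95% counting interval of 3.24 to 839. It rested on the 1 read in the mutants and on WT 1: without WT 1 the ratio was 7.19, with an interval of 0.577 to 377 that spans 1. The intervals cover counting error alone, because copies of 1 molecule cannot be recognised among amplicon reads. Without the filter, the adjusted p for Bmp2 was 0.393 by limma. Bmp5, a ligand of ear and skeletal growth in mice, had no read in either Gnas mutant library or in WT 1, and stood at 3.41 RPM (46 reads) in WT 2. The same WT 2 library held 822 RPM of the macrophage lysozyme gene Lyz2, against 20.8 and 10.4 RPM in the Gnas mutant libraries and 33.9 RPM in WT 1, and the part of those cells in the Bmp5 value was not tested. Set against 3 reads over the Gnas mutant group, Bmp5 was at least 15.5-fold lower there than in the WT group, but this rested on WT 2 alone. Bmp7, a ligand needed for kidney development, had 1 read over the Gnas mutant group and 1 over the WT group, which allows no fold.

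For the type I receptor genes, the WT libraries lay closer together than for Bmp4, Bmp6 and Gdf6. Bmpr1a, the widely expressed type I receptor also called ALK3, was at 53.0 and 49.8 RPM in the Gnas mutant libraries, against 44.8 RPM in WT 1 and 40.3 RPM in WT 2. The groups did not overlap, but the gap was small, with means of 51.4 ± 2.31 RPM in Gnas mutant and 42.5 ± 3.17 RPM in WT libraries. The log2 fold change was 0.27 (SE 0.22, 95% interval -0.28 to 0.82), with an adjusted p of 0.569 by limma. Bmpr1b, also called ALK6 and important for cartilage formation, was at 13.7 and 8.96 RPM in the Gnas mutant libraries, against 18.3 RPM in WT 1 and 14.1 RPM in WT 2. Both Gnas mutant values were lower than both WT values, but Gnas mutant 1 (13.7 RPM) and WT 2 (14.1 RPM) lay close together. The log2 fold change was -0.50 (SE 0.34, 95% interval -1.37 to 0.37), with an adjusted p of 0.509 by limma. The intervals bound the difference to less than 1 log2 unit upwards for both receptors, and for Bmpr1a also downwards.

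**Figure D2:**
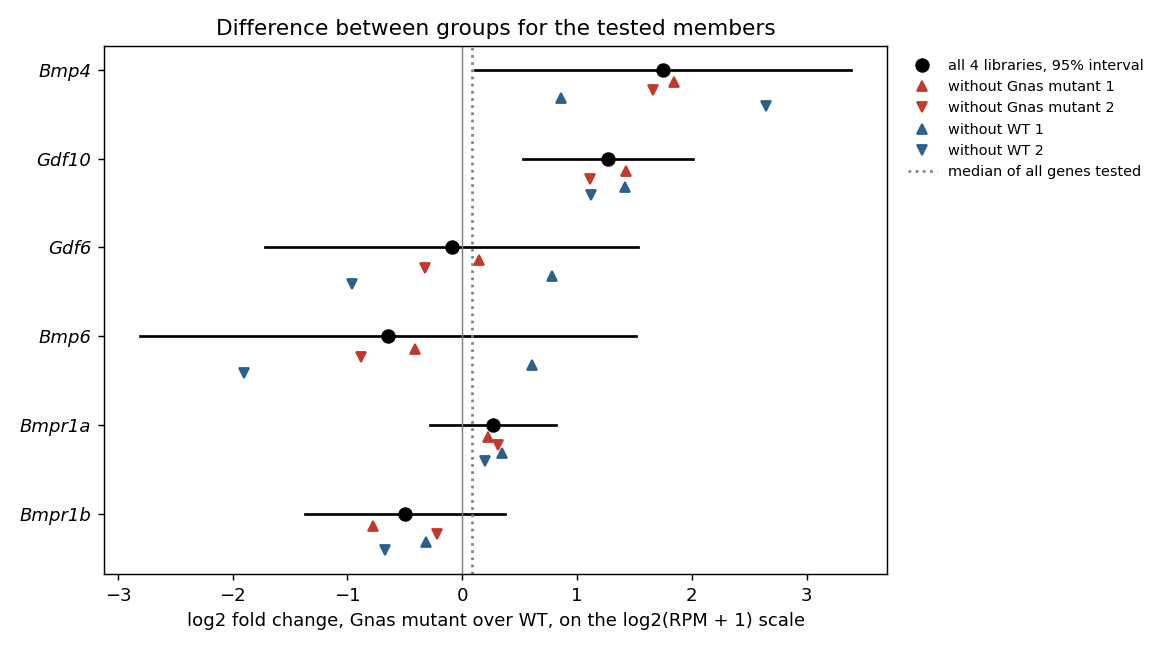
Log2 fold change of the 6 tested members, Gnas mutant over WT, on the log2(RPM + 1) scale (x axis): black points and lines are the estimate and 95% interval from all 4 libraries, triangles the estimate without 1 library, and the dotted line the median of all genes tested (0.08). Bmp6 and Gdf6 change sign with the WT library left out, and Gdf10 stays between 1.11 and 1.43 in the 4 estimates that leave out 1 library.

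The tested members differed in how far apart the libraries of a group lay. Between the WT libraries, log2(RPM + 1) differed by 2.51 for Bmp6, 1.79 for Bmp4 and 1.75 for Gdf6, against a median of 0.43 over all genes tested. A gap at least as wide was found in 2.33%, 5.79% and 6.11% of all genes tested. Between the Gnas mutant libraries the same genes differed by 0.47, 0.18 and 0.47, against a median of 0.23. The WT gap was 0.29 for Gdf10, 0.15 for Bmpr1a and 0.36 for Bmpr1b, each below the median. The Gnas mutant gap of Gdf10 was 0.32, above the median of 0.23. Bmpr1b was the tested member whose Gnas mutant libraries lay widest apart (0.56), a gap reached by 13.9% of all genes tested. The WT library with the higher RPM was WT 1 for Bmp6, Gdf6 and Bmp2, and WT 2 for Bmp4 and Bmp5.

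**Figure D3:**
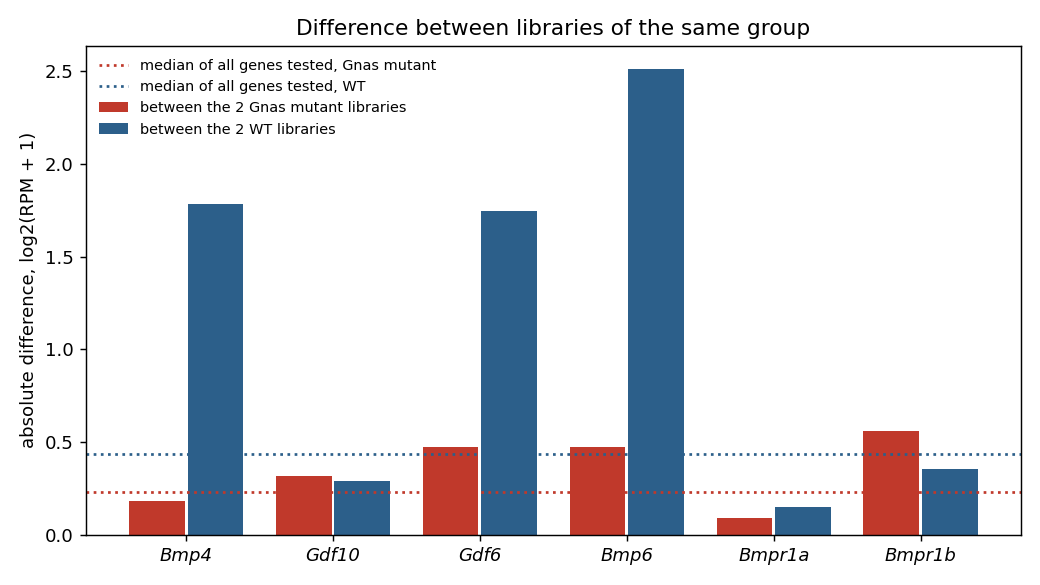
Absolute difference in log2(RPM + 1) between the 2 Gnas mutant libraries (left bars) and between the 2 WT libraries (right bars) for the 6 tested members; dotted lines are the medians over all genes tested, 0.23 and 0.43. Bmp6, Bmp4 and Gdf6 stand far above the WT median, at 1.75 to 2.51.

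On the genome, 3 of the 9 measured members lie on chromosome 14 (Gdf10, Bmpr1a and Bmp4; GENCODE M21, GRCm38). Gdf10 ends 473 kb before Bmpr1a, and 3.06 kb before Gdf2, the gene of the endothelial ligand BMP9, which was at 0 in every library. None of the 9 other tested genes that start within 1 Mb of Gdf10, Bmpr1a among them, passed the limma test, none had an unadjusted p below 0.05, and edgeR and DESeq2 called 0 as well. Their log2 fold changes ran from -1.32 to 0.98 with a median of 0.23.

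The tested genes nearest to Gdf10 over the 4 libraries, by Euclidean distance between mean-centred log2(RPM + 1) values, were Pick1 (distance 0.0503), Mamdc2 (0.0642) and Gm13889 (0.075). Mamdc2 was at 57.0 and 72.5 RPM in the Gnas mutant libraries, and at 27.6 and 23.7 RPM in the WT libraries. Nearest to Bmpr1a were Pwp1 (0.024), Ept1 (0.032) and Zfpm2 (0.033). With 4 libraries such distances are a description.

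Related genes, called pathway genes here, were read from 7 lists. These lists also hold activin and TGF-beta genes outside the BMP route described above, such as Inhbb, Acvr1b and Tgfbr1. In the 7 lists, 70 genes had a row and 52 were tested. Of these, 2 rose, 2 fell and 48 did not pass, where 1.73% of all genes tested rose and 0.576% fell. The 2 that rose, Bmp3 and Chrdl1, reached the filter only through the Gnas mutant libraries. The groups did not overlap in 34.6% of the 52 (18, higher) and 23.1% (12, lower), against 30.6% and 21.1% of all genes tested. Their median log2 fold change was 0.18, against 0.08 for all genes tested. Among the 12 tested antagonists 1 rose and 1 fell, and among the 9 other tested ligands 1 rose and 1 fell. At an unadjusted limma p below 0.05 were 7 of those antagonists and 5 of those ligands, against 17.9% of all genes tested. The lists were chosen with earlier results of these data known. No type II or other type I receptor, co-receptor, ligand-processing enzyme, Smad or BMP response gene passed by limma or edgeR, and DESeq2 called 2 of them.

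Bmp3, a ligand that opposes osteogenic BMPs and lowers bone density in mice, had no read in either WT library. It stood at 13.1 and 12.6 RPM (229 and 187 reads) in the Gnas mutant libraries, at least 137-fold higher when set against 3 reads over the WT group. Bmp3 spans 98854415 to 98884396 of chromosome 5 (plus strand). The limma log2 fold change was 3.79 (SE 0.33, adjusted p = 0.0196), and the adjusted p was 0.0409 by edgeR and 1.2e-08 by DESeq2. Bmp3 reached the filter only through the Gnas mutant libraries, and without the filter its call ended (adjusted p = 0.0562). Inhbb, the beta B subunit of activins and inhibins, fell to 57.2 and 55.0 RPM in the Gnas mutant libraries, against 221 and 187 RPM in the WT libraries (log2 fold change -1.84, limma adjusted p = 0.0268). Gdf15, a stress-induced ligand, averaged 6.33 ± 1.91 RPM in Gnas mutant and 22.5 ± 7.61 RPM in WT libraries and did not pass by limma (adjusted p = 0.116), but did by DESeq2 (adjusted p = 0.00405).

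Among the antagonists, Chrdl1 (a chordin-like BMP binder on the X chromosome) was at 90.2 and 68.6 RPM in the Gnas mutant libraries, against 1.95 RPM in WT 1 and 0 in WT 2. Chrdl1, too, reached the filter only through the Gnas mutant libraries. Its log2 fold change was 5.54 (limma adjusted p = 0.0229), and the call ended without the filter (0.0517), with edgeR (0.0983) and with DESeq2 (0.0853). Grem1, the gene of gremlin, which binds BMP2 and BMP4, fell to 2.29 and 2.09 RPM in the Gnas mutant libraries, against 35.5 and 47.9 RPM in the WT libraries (log2 fold change -3.73, limma adjusted p = 0.0196). Bmper, which encodes a secreted BMP-binding protein, was at 281 and 171 RPM in the Gnas mutant libraries and at 38.5 and 61.8 RPM in the WT libraries. It did not pass (limma adjusted p = 0.0582, and 9.02e-05 by DESeq2). Noggin's gene Nog was at or below 0.115 RPM in every library.

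Of the 31 tested genes in the other 5 lists, limma called 0, with 3 at an unadjusted p below 0.05, where all genes tested had 17.9%. There edgeR called 0 and DESeq2 called 2. The type I receptor gene of TGF-beta, Tgfbr1, averaged 7.34 ± 0.955 RPM in Gnas mutant and 22.1 ± 5.60 RPM in WT libraries (limma adjusted p = 0.109, and 0.00136 by DESeq2). The activin receptor gene Acvr1b (log2 fold change 0.46) and the type II receptor gene Bmpr2 (0.38) had limma adjusted p of 0.404 and 0.566. Among co-receptors, Neo1, whose product binds repulsive guidance molecules, averaged 366 ± 32.7 RPM in Gnas mutant and 150.2 ± 2.08 RPM in WT libraries. It was next to the threshold (log2 fold change 1.27, limma adjusted p = 0.0514) and passed by DESeq2 (adjusted p = 0.000123). The repulsive guidance molecule genes Rgma (0.76) and Rgmb (-0.34) did not pass.

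The ligand-cutting convertase genes Furin (log2 fold change -0.47) and Pcsk7 (0.36) and the chordin-cutting protease gene Tll1 (1.64) did not pass the limma test (adjusted p = 0.393, 0.562 and 0.456). Tll1 stood at 32.8 and 25.5 RPM in the Gnas mutant libraries, and at 2.28 RPM in WT 1 and 27.1 RPM in WT 2, so only WT 1 was low. The receptor Smad genes Smad9 (1.00), Smad5 (0.48) and Smad1 (0.31) had limma adjusted p of 0.286, 0.449 and 0.547. Of the genes that report BMP signalling, Bambi, which encodes a decoy receptor, averaged 35.4 ± 1.03 RPM in Gnas mutant and 12.5 ± 6.12 RPM in WT libraries (limma adjusted p = 0.142). Msx1 (log2 fold change -0.83) and the inhibitory Smad7 (-0.77) did not pass (limma adjusted p = 0.309 and 0.333). Id1, a direct target of BMP Smads, was at 86.1 and 106 RPM in the Gnas mutant libraries, between the 51.6 RPM of WT 1 and the 172 RPM of WT 2.

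**Figure D4:**
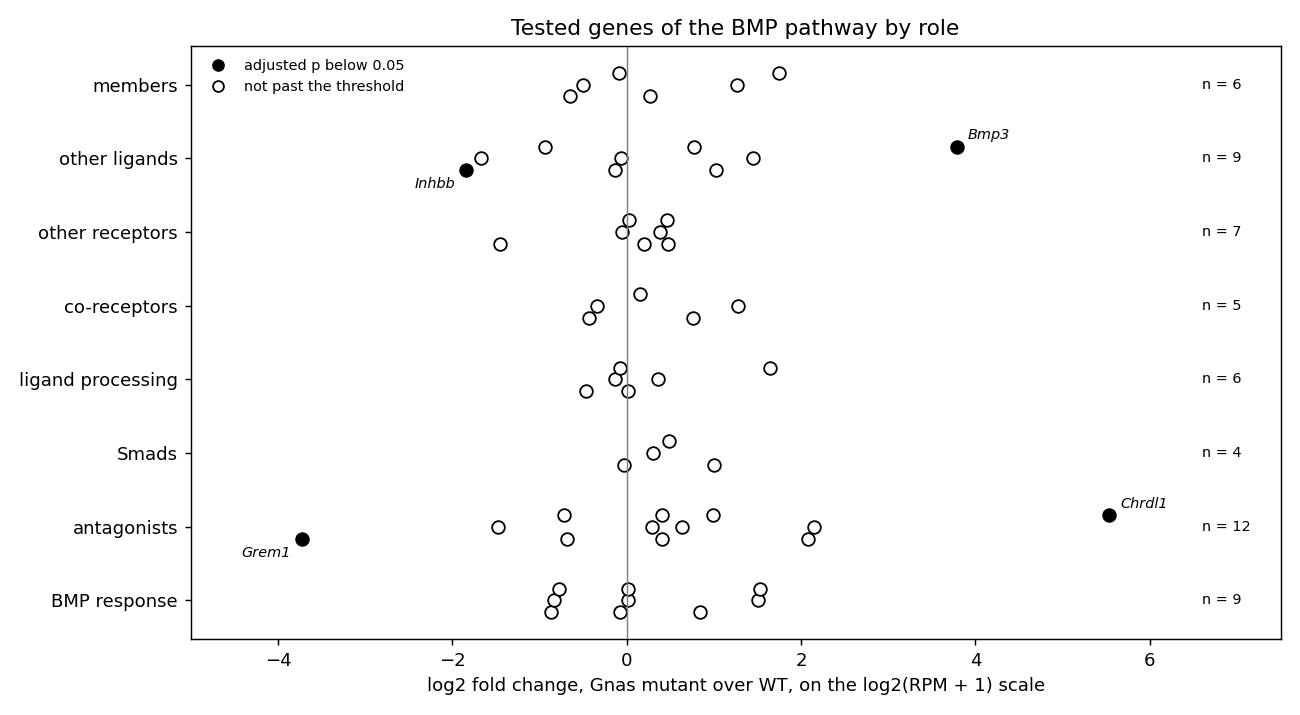
Log2 fold change, Gnas mutant over WT, on the log2(RPM + 1) scale (x axis) of the tested members and of the tested genes of 7 pathway lists (rows, with the number of genes); filled points passed the limma threshold. Chrdl1 and Bmp3 lie furthest right at 5.54 and 3.79, Grem1 and Inhbb furthest left at -3.73 and -1.84, and no member is filled.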

How the data were processed

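The authors deposited a table of RPM values, reads of each amplicon scaled to a fixed total per library. Per the labels' protocols, complementary DNA was amplified with an Ion AmpliSeq mouse transcriptome panel on an Ion Chef. The aligner, counter and genome build were not given in the sources used. Scaling removes library size only, so genes that take more reads lower all others. Symbols came from amplicon names, because 27 gene names had become dates. The step between values returned whole reads for 100% of non-zero values (within 0.01 read).

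A gene was tested if 2 or more libraries held 1 RPM or more (11638 genes). The two-sided test was limma 3.58.1 in R 4.3.3, with an intensity trend, on log2(RPM + 1), adjusted by Benjamini-Hochberg. This scale understates the change of low genes. Alternatives were other pseudocounts, filters and scalings, leaving out each library, a replicate block, and edgeR 4.0.16 (quasi-likelihood) and DESeq2 1.42.0 on the recovered reads. The procedure was tested on simulated data.

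Members and lists were chosen with earlier results of these data known. All members are described. From each list, genes past the threshold and the 3 with the smallest unadjusted p are named. Lyz2, Id1, Nog, Gdf2, Xist, Ddx3y and the single cell type markers were added with their values in view. The genes nearest to Gdf10 (the member with the smallest p) and to Bmpr1a (the member with the highest mean) are given. Positions are from GENCODE M21 by symbol and promoter stretches from RefSeq (GRCm38.p6). Python 3.11.15 with pandas 2.3.3, scipy 1.17.1 and matplotlib 3.10.9 made tables and figures.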

Additional observations from a re-analysis of the deposited data

How the results depend on the processing

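Over 14 alternatives, the 6 tested members gave 82 values, of which 3 changed sign (Bmp6 and Gdf6 without WT 1, Gdf6 without Gnas mutant 1), none of them past the threshold, and 5 newly passed (Bmp4 and Bmp6 without WT 2, Gdf10 without WT 1, without WT 2 and with DESeq2). The number of members called higher was 1 with DESeq2 and 0 to 2 with a library left out, and of members called lower 0 to 1. The 21 named pathway genes kept their sign in 290 values, with 22 newly past the threshold and 10 no longer past it. Among pathway genes, 0 were higher without the filter (limma, 9 at an unadjusted p below 0.05) and 1 with edgeR, 6 were lower with DESeq2, and leaving out a library gave 0 to 14 higher and 0 to 8 lower.

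Over all genes, limma called 201 higher and 67 lower. The counts were 56 and 18 without the filter, 66 and 27 with edgeR, and 598 and 493 with DESeq2. With a library left out they ran from 0 to 1731 higher and 0 to 854 lower, being 0 without either Gnas mutant library (limma; 427 higher and 262 lower at an unadjusted p below 0.05 without Gnas mutant 1, and 394 and 276 without Gnas mutant 2), where the spread rests on the WT pair. Quantile normalization moved the median log2 fold change of all genes to -0.03, against 0.08 as deposited. The labels state no pairing of same-numbered libraries. Their deviations from group means had a correlation of 0.16 across genes, which does not settle whether they were paired. The replicate block (limma) gave 301 genes higher and 123 lower, called no member and brought Bmper past the threshold (adjusted p = 0.0406). The cause of these shifts was not tested. The depth allows up to 0.163 to 0.222 RPM for an amplicon with no read.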
